A study of Mus musculus with 10 samples.

Results

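The genes of the proteasome and of its regulators were followed in O9-1 cells, a mouse cell line with features of the cranial neural crest, after loss of Kat5 or Ep400. Genes were taken by their symbols, which begin with *Psma*, *Psmb*, *Psmc*, *Psmd*, *Psme*, *Psmf* or *Psmg* and end in a number, and by a mean of at least 50 counts over the wildtype libraries. Of 43346 genes in the count table, 48 had such a symbol and 44 reached the minimum. The 4 below it were *Psmb8*, *Psmb9*, *Psmb11* and *Psma8*, which accounted for 0 to 114 counts in any library. All 44 genes passed the filter on low counts and were tested in every comparison.

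Polyadenylated RNA was sequenced from 4 wildtype samples (WT/1 to WT/4), 3 Kat5 ko clones (Kat5/1 to Kat5/3) and 3 Ep400 ko clones (Ep400/1 to Ep400/3), and reads were counted on genes. Kat5 is the acetyltransferase and Ep400 the ATPase of the same chromatin remodeling complex. All cells were grown on Matrigel in medium conditioned by fibroblasts, no drug treatment or time course was part of the design, and the labels give no clone for the wildtype samples. The knockouts came from CRISPR/Cas9 editing followed by expansion of single cells, so that each replicate of a knockout is a different clone of a tetraploid line. By the study's description, Ep400/1 carried frameshifts in all alleles, whereas Ep400/2 and Ep400/3 each kept alleles with short in-frame deletions in the ATP binding site. The spread of a knockout group thus contains differences between clones. A difference between a knockout and wildtype can contain the effect of genotype and that of editing and cloning, which this design cannot tell apart. In bulk RNA, fewer cells with a transcript and less of it per cell cannot be told apart either.

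Between 30968945 and 48301792 reads per library were counted on genes, and all levels are given as CPM (the counts of a gene scaled to a common library size) after TMM normalization over the 10 libraries. *Kat5* was at 48.8 to 57.5 CPM in wildtype cells and at 16.4 to 23.2 CPM in the Kat5 ko clones. *Ep400* was at 157 to 165 CPM in wildtype cells and at 54.7 to 61.4 CPM in the Ep400 ko clones, and the knockout clones of each gene did not overlap with wildtype cells. All 8 markers of the neural crest and its mesenchyme that were examined (*Twist1*, *Prrx1*, *Snai2*, *Sox9*, *Tfap2a*, *Cd44*, *Nt5e* and *Ly6a*) exceeded 1 CPM in every library, with summed levels of 1411 to 1711 CPM in wildtype cells, 1392 to 1804 CPM in Kat5 ko clones and 1764 to 3063 CPM in Ep400 ko clones. The 6 markers of epithelial, blood, endothelial and neuronal cells summed to 4.04 to 7.66, 2.42 to 10.3 and 5.97 to 23.3 CPM in the same groups. In Ep400 ko clones *Snai2* and *Tfap2a* were called higher and *Nt5e* lower among the former, and *Tubb3* higher and *Pecam1* lower among the latter. No marker was called by edgeR in Kat5 ko clones, where DESeq2 called *Nt5e* and *Pecam1* lower, and 11% of all genes. The part of these shifts in the results below was not tested. Ep400/3 had the highest neural crest sum, of which *Prrx1* alone made up 2157 CPM. *Twist1*, *Snai2* and *Tfap2a* were also above the wildtype range there, *Cd44* and *Ly6a* within it, and *Sox9* (52.6 CPM) and *Nt5e* (1.79 CPM) below it. The highest sum for other cells, that of Ep400/1, contained 22.8 CPM of *Tubb3*. WT/3 stood apart from the other wildtype libraries for many proteasome genes, as described below for each result.

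The 26S proteasome degrades proteins that carry ubiquitin chains. Its barrel-shaped core, the 20S particle, is built from outer rings of alpha subunits and inner rings of beta subunits, some of which are proteases. The 19S particle caps the barrel, where a ring of ATPases unfolds the substrate and non-ATPase subunits bind and remove ubiquitin. Dedicated chaperones assemble the particles, other activators can replace the 19S cap, and in cells exposed to interferon the proteolytic subunits are exchanged for inducible counterparts that favour peptides for antigen presentation. When proteasome activity is insufficient, the transcription factor Nfe2l1 binds antioxidant response elements in the promoters of many subunit genes.

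To show what such elements look like in these genes, RefSeq promoter windows (GRCm38.p6, 250 bases before to 50 after the start) were searched on both strands for the letters TGACNNNGC, the core of the antioxidant response element. Windows were found for 37 of the 44 genes, and 6 of the 37 (16.2%) contained the letters, compared with 13.99% of all 27025 genes with a window. The CCAAT box, searched in the same way, was in 12 of 37 (32.4%) and in 41.1% of all genes. Both shares were thus close to or below those of all promoters. Stretches of the windows of *Psmd9* (chr5:123228144-123228182, plus strand), *Psmb6* (chr11:70525333-70525356, plus strand), *Psmd12* (chr11:107479278-107479304, plus strand), *Psmc6* (chr14:45329582-45329620, plus strand) and *Psmb5* (chr14:54618019-54618057, minus strand) are printed in the direction of transcription, with the match in capitals. In *Psmd12* and *Psmc6* the match lies on the opposite strand and reads in reverse complement.
Psmd9: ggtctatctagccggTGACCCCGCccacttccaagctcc
Psmb6: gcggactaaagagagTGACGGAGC
Psmd12: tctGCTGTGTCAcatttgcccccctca
Psmc6: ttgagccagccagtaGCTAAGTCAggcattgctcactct
Psmb5: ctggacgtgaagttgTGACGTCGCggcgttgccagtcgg
A match of these letters is a description and was not tested for binding. Of the 5 genes shown, only *Psmd12* was called by edgeR in a comparison described below.

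In wildtype cells, the 31 subunits of the 26S proteasome taken by their symbols had higher levels per length than most regulators. On the scale of CPM per kilobase of exons, the 7 alpha subunits lay between 68.0 and 167, the 7 constitutive beta subunits between 66.3 and 222, the 6 ATPases between 83.7 and 161, and the 11 non-ATPase subunits of the 19S particle between 49.1 and 211. The highest level in each class belonged to *Psma7* (167 ± 30.5, SD, n = 4), *Psmb6* (222 ± 22.9), *Psmc1* (161 ± 12.3) and *Psmd2* (211 ± 29.2), the last of which encodes a large scaffold subunit to which ubiquitin receptors dock. *Psma7* and the next alpha subunit, *Psma6* (164 ± 38.1), differed by less than their spread. The chaperones were lower, at 9.997 to 32.6 CPM per kilobase, the activators and the inhibitor *Psmf1* ranged from 8.12 to 68.7, and *Psmb10*, which alone among the inducible beta subunits reached the minimum count, was at 12.1. Reads of *Psma3*, *Psma4*, *Psma5*, *Psmb3*, *Psmb5*, *Psmc1*, *Psmd2*, *Psmd11* and *Psme2* may be shared with transcribed copies or pseudogenes of at least 95% identity, which makes their levels uncertain.

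Together, the 44 genes took 0.623% to 0.740% of all counts in wildtype libraries, 0.643% to 0.765% in Kat5 ko clones and 0.449% to 0.592% in Ep400 ko clones. The share was thus below the wildtype range in every Ep400 ko clone, and above it in Kat5/2 and Kat5/3 but not in Kat5/1. For the 31 subunits of the 20S and 19S particles, the median level relative to the wildtype mean was 83.1% in both Ep400/1 and Ep400/2 and 57.1% in Ep400/3. In the Kat5 ko clones it was 96.2%, 121% and 114%. The wildtype libraries themselves lay at 104%, 108%, 88.1% and 102%, with WT/3 as the lowest. Ep400/3 was the lowest library of all, and 30 of its 31 subunit genes were below the wildtype range, as opposed to 16 in Ep400/1 and 18 in Ep400/2. Across all 13094 genes with sufficient counts, 30.0% to 35.6% were below the wildtype range in an Ep400 ko clone.

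**Figure D1:**
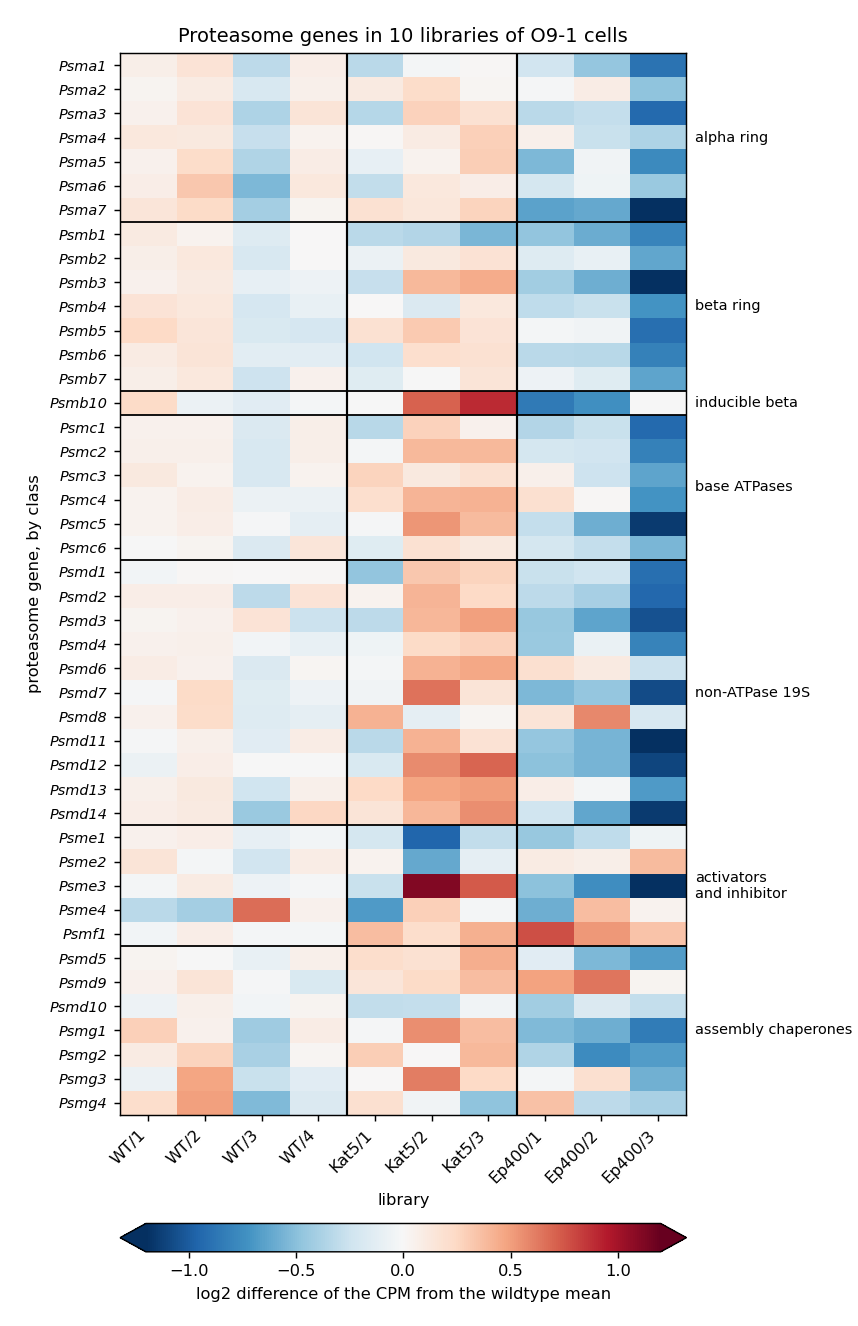
Log2 difference of the CPM of each of the 44 proteasome genes (rows, by class) from the wildtype mean in each of the 10 libraries (columns, coloured from lower in blue to higher in red, with the colour scale ending at 1.2 on either side). Ep400/3 was below the wildtype mean for 40 of 44 genes, and WT/3 for 41.

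**Figure D2:**
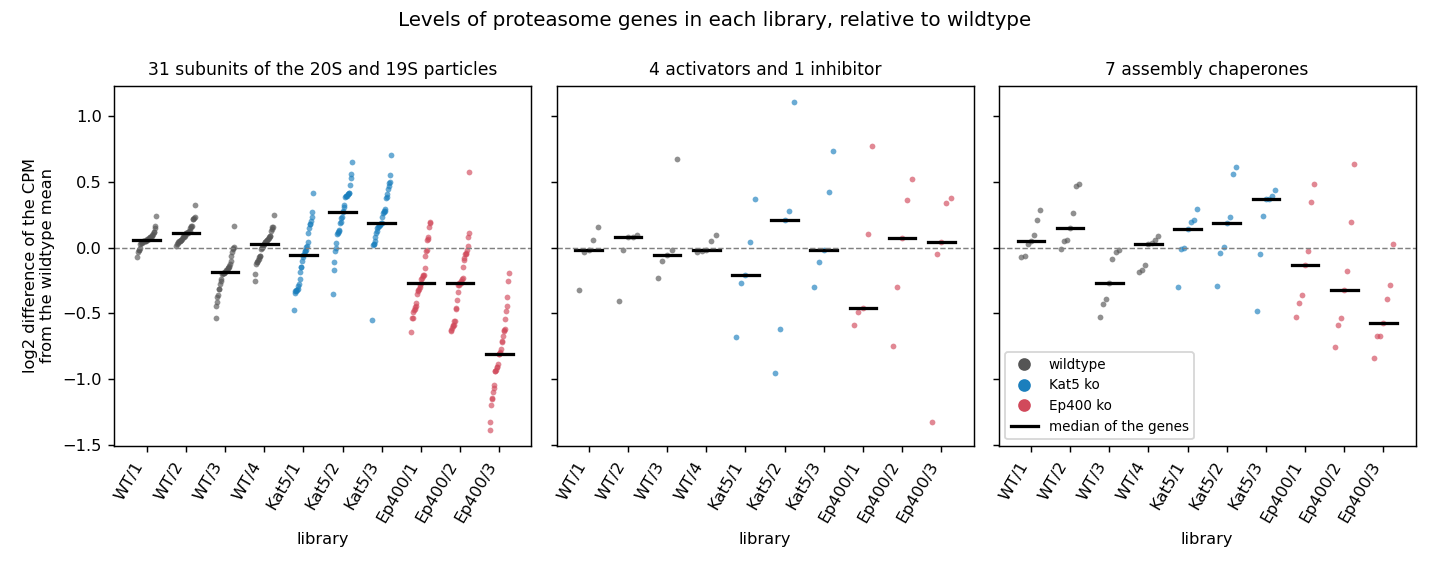
Log2 difference of the CPM from the wildtype mean (vertical axis) for every gene (point) and the median of the genes (bar) in each library, in panels for the 31 subunits of the 20S and 19S particles, the activators with the inhibitor, and the chaperones. Medians of the 31 subunits were −0.27, −0.27 and −0.81 in the Ep400 ko clones and −0.06, 0.27 and 0.19 in the Kat5 ko clones.

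The first question was which proteasome genes differed between Ep400 ko clones and wildtype cells. Compared with wildtype cells, 7 genes fell and 1 rose in the Ep400 ko clones. The genes that fell were *Psma7*, *Psmb1*, *Psmd3*, *Psmd7*, *Psmd11*, *Psmd12* and *Psme3*, and the gene that rose was *Psmf1*. These 8 of 44 genes (18.2%) were called by the quasi-likelihood test of edgeR at a threshold of 0.05 on the adjusted p, as were 13.7% of the 13836 genes tested (5.72% lower, 8% higher). Log2-fold changes of the 44 genes had a median of −0.42, or 74.9% of the wildtype level, compared with 0.04 for all genes, and 39 of 44 were negative compared with 46.9% of all genes. The 5 positive values compare with 53.1% of all genes. At an unadjusted p of at most 0.05, 22 genes were lower and 2 higher, compared with 14.2% and 18% of all genes (32.2% in either direction). With CPM normalized within the comparison, in 18 of the 44 genes (40.9%) every Ep400 ko clone was below every wildtype sample, compared with 14.1% of all genes, and in 1 gene (2.27%) every clone was above, compared with 16.1%. No called gene reached an absolute log2-fold change of 1, a limit that with a mean of more than 100 normalized counts was used to define deregulated genes, whereas 6.42% of all genes passed these limits. The number of calls depended on the libraries: it was 0 without WT/1, WT/2 or WT/4, 1 without Ep400/2, 5 without WT/3, 8 without Ep400/3 and 9 without Ep400/1. The share of all genes called was 5.85%, 7.19% and 6.06% without WT/1, WT/2 and WT/4, 10.1% without Ep400/2, 12.1% without WT/3, 12.3% without Ep400/3 and 14.3% without Ep400/1, so calls were also fewer among all genes when these wildtype samples were left out. Without Ep400/3, the median log2-fold change was −0.29.

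**Figure D3:**
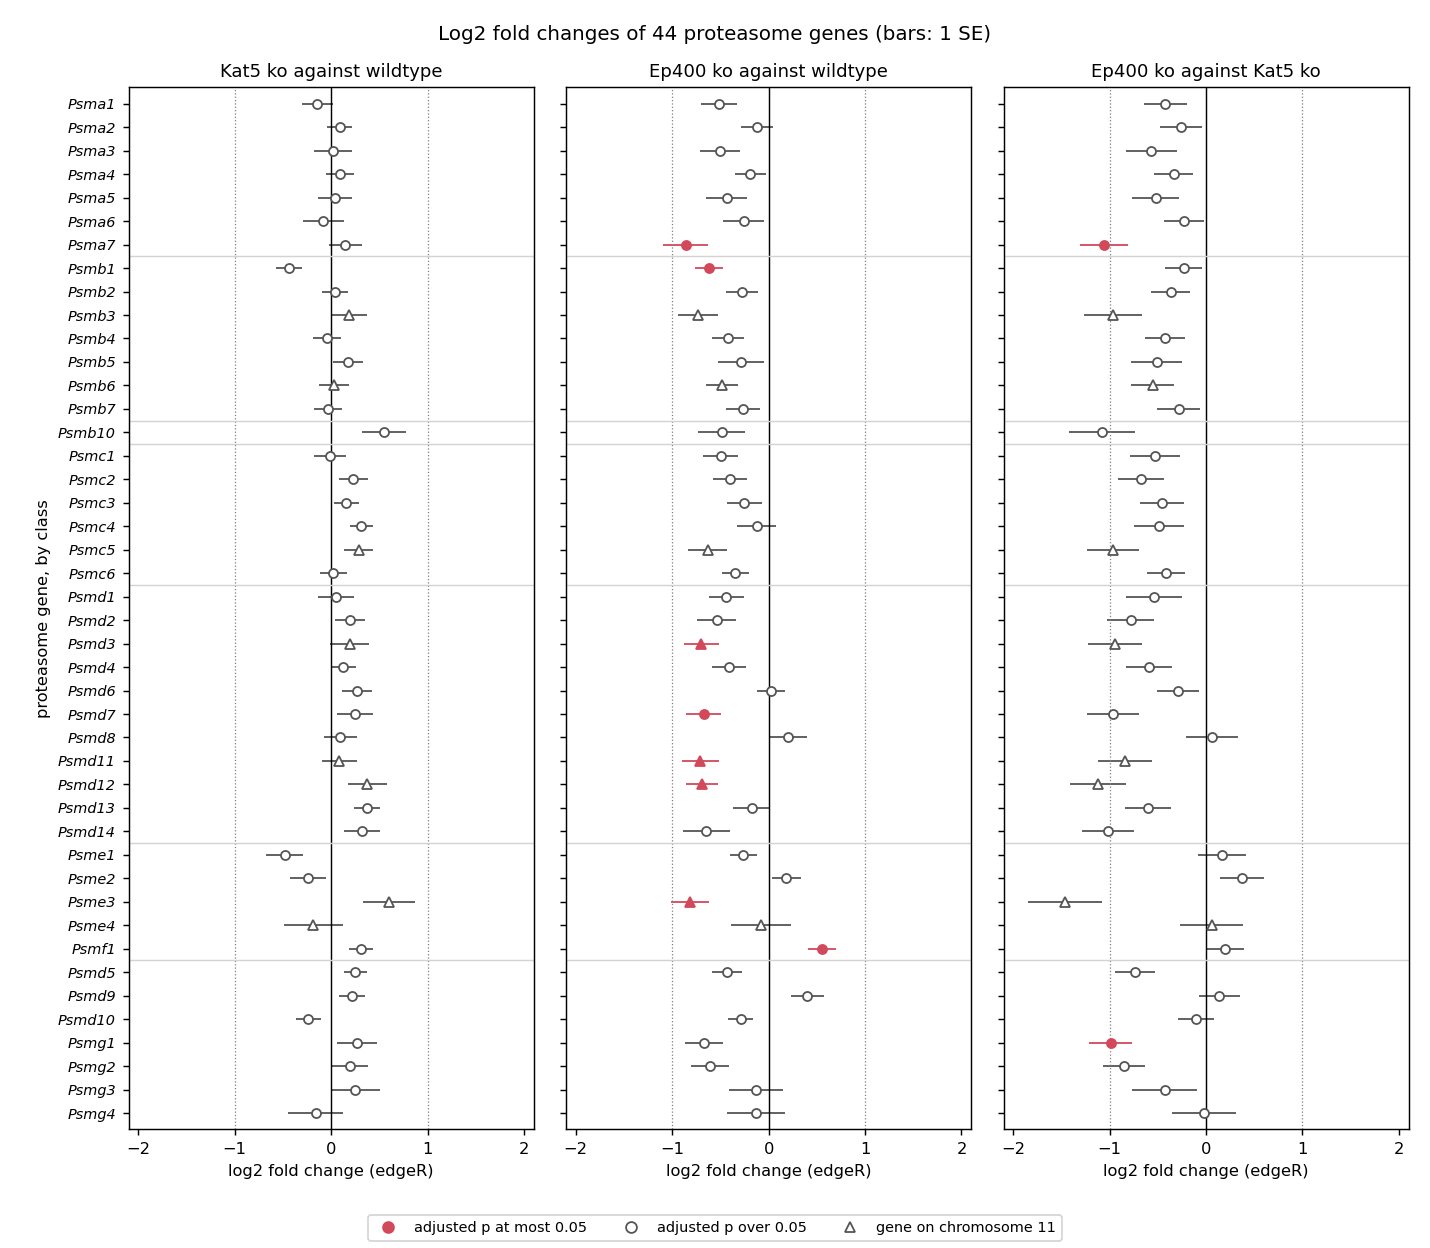
Log2-fold change with 1 standard error (horizontal axis) of the 44 genes in Kat5 ko against wildtype, Ep400 ko against wildtype and Ep400 ko against Kat5 ko, with filled red symbols for genes called by edgeR (threshold 0.05 on the adjusted p) and triangles for genes on chromosome 11. Filled symbols number 0, 8 and 2 in the panels, and in the comparison of Ep400 ko with wildtype 39 of 44 symbols lie below 0.

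Within the 20S core, all 14 constitutive subunits had negative log2-fold changes in the Ep400 ko clones. The alpha ring had a median of −0.43 and the beta ring of −0.42. In each, 1 of 7 genes (14.3%) was called lower, compared with 5.72% of all genes. *Psma7* (chr2:180036374-180042433, minus strand, GRCm38), an alpha subunit, was at 215, 228, 146 and 198 CPM in the wildtype samples, at 220, 213 and 234 CPM in the Kat5 ko clones and at 124, 127 and 74.2 CPM in the Ep400 ko clones. Every Ep400 ko clone was below every other library, although WT/3 came close. Its log2-fold change was −0.86 ± 0.23 (SE, adjusted p = 0.0434 in edgeR) in Ep400 ko clones. The call held in 1 of the 7 fits from which a library was left out, that without WT/3.

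*Psmb1* (chr17:15475021-15499751, minus strand), a non-catalytic beta subunit, was at 282, 270, 235 and 264 CPM in wildtype, at 209, 205 and 179 CPM in Kat5 ko and at 189, 173 and 151 CPM in Ep400 ko libraries. Both knockouts were below all wildtype samples. The log2-fold change was −0.62 ± 0.14 (adjusted p = 0.0245 in edgeR) in Ep400 ko clones and −0.44 ± 0.13 (adjusted p = 0.117) in Kat5 ko clones, where DESeq2 called it. The call for Ep400 was lost without WT/1, WT/2, WT/4 or Ep400/2. *Psmb3*, another structural beta subunit, was just outside the threshold with −0.73 ± 0.21 (adjusted p = 0.0515).

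The catalytic subunits were not called by edgeR in any comparison, and DESeq2 called *Psmb6* lower in Ep400 ko against wildtype. At an unadjusted p of at most 0.05, *Psmb6* was lower in Ep400 ko clones in both of their comparisons. *Psmb5*, which carries the chymotrypsin-like activity, had a level of 51.2 to 69.6 CPM in wildtype cells, 66.2 to 73.3 CPM in Kat5 ko clones and 58.0, 57.2 and 31.5 CPM in Ep400 ko clones. *Psmb6*, with the caspase-like activity, was at 162 to 197 CPM in wildtype cells and at 141, 140 and 101 CPM in Ep400 ko clones, all below the wildtype range (log2-fold change −0.48 ± 0.17, adjusted p = 0.0867 in edgeR). *Psmb7*, with the trypsin-like activity, was at 142 to 185 CPM in wildtype cells and at 162, 153 and 110 CPM in Ep400 ko clones (−0.27 ± 0.17, adjusted p = 0.32). Ep400/3 was the lowest library for all 3 genes. Exons of *Psmb7* share 405 bases with *Nek6* on the opposite strand, and it is not stated whether counting used the strand.

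Of the inducible subunits, *Psmb10* (the counterpart of *Psmb7*) was at 14.4 to 18.5 CPM in wildtype cells, at 15.8, 25.8 and 29.5 CPM in the Kat5 ko clones and at 8.77, 9.495 and 15.8 CPM in the Ep400 ko clones. Kat5/2 and Kat5/3 were above all wildtype samples and Ep400/1 and Ep400/2 below, whereas Kat5/1 and Ep400/3 were within the wildtype range. Neither comparison with wildtype passed the test (log2-fold change 0.55 ± 0.23 for Kat5 with adjusted p = 0.202, and −0.49 ± 0.24 for Ep400 with adjusted p = 0.205, in edgeR). *Psmb8* and *Psmb9*, the counterparts of *Psmb5* and *Psmb6*, lie in the same region of chromosome 17 and were nearly silent. *Psmb8* had 25, 35, 6 and 16 counts in wildtype, 34, 2 and 10 in Kat5 ko and 35, 7 and 114 in Ep400 ko libraries. *Psmb9* had 18, 19, 8 and 20, then 20, 0 and 7, and then 33, 8 and 88 counts. For both genes Ep400/3 was the highest and Kat5/2 the lowest of all libraries, and neither passed the test in any comparison.

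Per kilobase of exons, *Psmb8*, *Psmb9* and *Psmb10* together made up 2.55% to 3.12% of the summed catalytic transcripts in wildtype cells and 3.203%, 3.94% and 4.46% in the Kat5 ko clones. The share was 2.00% in both Ep400/1 and Ep400/2 and 5.68% in Ep400/3. The Ep400 ko clones were therefore on both sides of the wildtype range. In Ep400/3 the constitutive sum was also the lowest of all libraries, at 256 CPM per kilobase compared with 383 to 479 in wildtype cells.

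**Figure D4:**
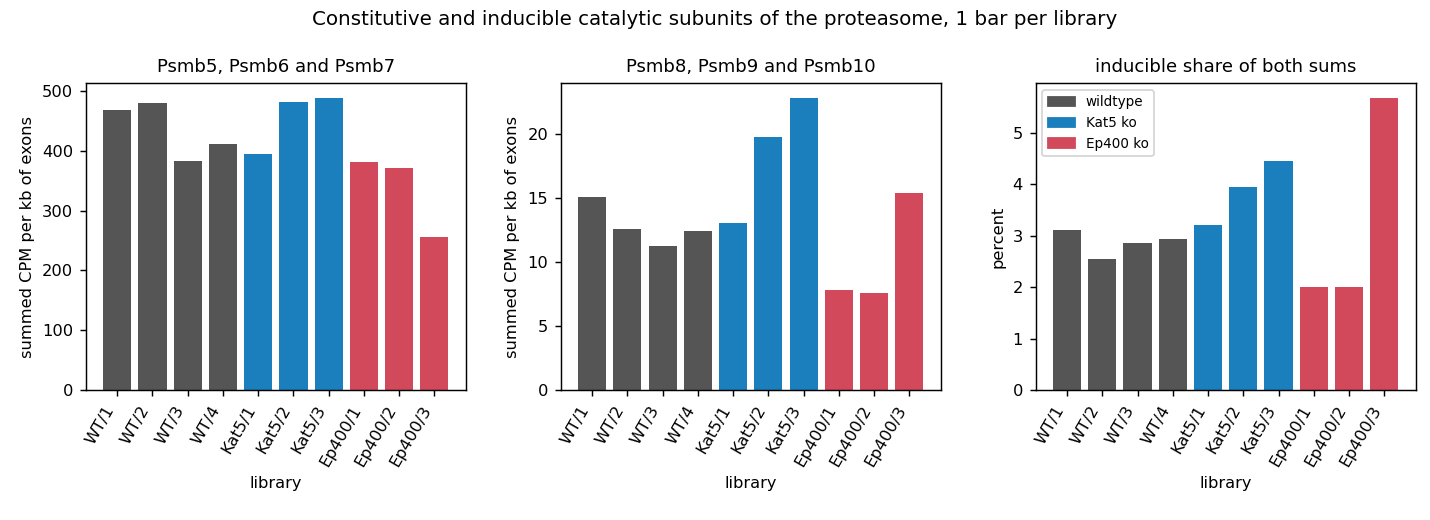
Summed CPM per kilobase of exons of the constitutive catalytic subunits (left) and of the inducible ones (middle), and the inducible share of both sums in percent (right), with 1 bar per library and no error. The share ranged from 2.55% to 3.12% in wildtype samples, and the lowest (2.00%) and the highest (5.68%) bars were both Ep400 ko clones.

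Genes linked to class I antigen presentation were examined because they use the inducible proteasome. None of the 8 genes of this list, among them *Tap1*, *Tap2*, *Tapbp*, *B2m*, *Erap1*, *Nlrc5* and *Irf1*, passed the test in any comparison in edgeR, and at an unadjusted p of 0.05, 2 of 8 were higher in Ep400 ko clones and 2 of 8 lower in Kat5 ko clones, compared with 18% and 11.6% of all genes. DESeq2 called *Nlrc5* and *Tap2* higher in Ep400 ko against wildtype, *Tap2* higher in Ep400 ko against Kat5 ko, and 0 genes in Kat5 ko against wildtype. It called 22.7%, 22.7% and 11% of all genes in the same comparisons. *Tap1*, a peptide transporter whose exons overlap those of *Psmb9* on the opposite strand, was at 8.46 to 12.5 CPM in wildtype cells, at 2.67 CPM in Kat5/2 and at 30.95 CPM in Ep400/3. Ep400/3 was thus the highest and Kat5/2 the lowest library for *Tap1* as for *Psmb8* and *Psmb9*.

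Within the 19S particle, the 6 ATPases of the base had a median log2-fold change of −0.37 in the Ep400 ko clones. None was called by edgeR and 1 by DESeq2, *Psmc5*, compared with 13.7% and 22.7% of all genes. At an unadjusted p of at most 0.05, 3 of 6 were lower, compared with 14.2% of all genes. In 4 of 6 (66.7%), all Ep400 ko clones were below all wildtype samples, compared with 14.1% of all genes. *Psmc1*, the ATPase with the highest level, was at 264, 264, 226 and 268 CPM in wildtype cells and at 199, 211 and 133 CPM in Ep400 ko clones. All 6 had negative log2-fold changes, from −0.63 for *Psmc5* to −0.12 for *Psmc4*.

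The 11 non-ATPase subunits had a median of −0.54, and 4 (36.4%) were called, all lower, compared with 5.72% of all genes. *Psmd12* (chr11:107479484-107504362, plus strand), a subunit of the lid, was at 137, 153, 144 and 144 CPM in wildtype, 127, 213 and 235 CPM in Kat5 ko and 103, 98.1 and 67.3 CPM in Ep400 ko libraries. Its log2-fold change was −0.69 ± 0.17 in Ep400 ko clones (adjusted p = 0.0294 in edgeR), and the call was lost when any wildtype sample was left out. The other lid subunits *Psmd3* (−0.70 ± 0.18, adjusted p = 0.0381) and *Psmd11* (−0.71 ± 0.19, adjusted p = 0.0427), as well as *Psmd7* (−0.67 ± 0.18, adjusted p = 0.0444), the partner of the deubiquitinase *Psmd14*, behaved alike in that all Ep400 ko clones were below all wildtype samples. *Psmd14* itself was at 103 to 167 CPM in wildtype cells and at 119, 90.5 and 63.2 CPM in Ep400 ko clones (−0.65 ± 0.24, adjusted p = 0.107). Of the 7 fits with a library left out, *Psmd3* kept its call in 1, *Psmd11* in 2 and *Psmd7* in 0. Of the 31 subunits of the 26S proteasome taken by their symbols, only *Psmd8*, a further lid subunit, and *Psmd6* had no negative log2-fold change. Their values were 0.21 ± 0.20 and 0.02 ± 0.15.

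Of the 8 called genes, 4 lie on chromosome 11. This chromosome holds 8 of the 44 genes, namely *Psmb3*, *Psmb6*, *Psmc5*, *Psmd3*, *Psmd11*, *Psmd12*, *Psme3* and *Psme4*. In Ep400 ko against wildtype their median log2-fold change was −0.70, and 4 of 8 (50%) were called lower, compared with 5.72% of all genes. Over all genes of chromosome 11, the median difference from the wildtype mean was −0.17, −0.19 and −0.20 on the log2 scale in the Ep400 ko clones, −0.12 in Kat5/1 and 0.10 and 0.14 in Kat5/2 and Kat5/3. The medians of the 8 genes in the same libraries were 72.8%, 67.3% and 45.8% of wildtype in the Ep400 ko clones and 82.9%, 132% and 133% in the Kat5 ko clones. They lay on the same side of wildtype as the chromosome median in each clone. The same sides were seen for the 25 subunits of the 20S and 19S particles outside chromosome 11. Their medians were 86.3%, 84.6% and 58.7% in the Ep400 ko clones and 98.2%, 117% and 114% in the Kat5 ko clones. The test was then repeated with the chromosome medians removed from each library. Of the 4 called genes on chromosome 11, none remained under the threshold (adjusted p = 0.0625 to 0.101 in edgeR), while *Psma7* (adjusted p = 0.03002) and *Psmb1* (adjusted p = 0.0481) did. Their log2-fold changes were then −0.51 for *Psmd3*, −0.53 for *Psmd11*, −0.51 for *Psmd12* and −0.64 for *Psme3*. *Psmd7* on chromosome 8 also lost its call, with a log2-fold change of −0.55 (adjusted p = 0.0798 in edgeR), and *Psmd5* and *Psmg1* were then called lower. With the median of neighbouring genes removed instead, *Psma7* (−0.99, adjusted p = 0.0384 in edgeR) and *Psmd12* (−0.61, adjusted p = 0.0485) kept their calls. *Psmb1* then lost its call (−0.60, adjusted p = 0.0560), as did *Psmd3*, *Psmd7*, *Psmd11* and *Psme3*, while *Psma1* and *Psmg1* were called lower. The 25 subunits of the 20S and 19S particles outside chromosome 11 had a median of −0.40, with 23 of 25 negative. Of these 25, 3 (12%) were called lower in the reported fit, compared with 5.72% of all genes.

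The activators and the inhibitor did not move together. *Psme3* (chr11:101316213-101323537, plus strand), which forms an activator ring found mainly in the nucleus, fell in the Ep400 ko clones with a log2-fold change of −0.82 ± 0.20 (adjusted p = 0.0289 in edgeR). It was at 161, 175, 157 and 162 CPM in wildtype cells and at 117, 97.6 and 65.3 CPM in Ep400 ko clones. The Kat5 ko clones were divided, with 136 CPM in Kat5/1 and 353 and 273 CPM in Kat5/2 and Kat5/3, which gave a log2-fold change of 0.60 ± 0.27 (adjusted p = 0.236). *Psme3* had the largest positive value of all 44 genes in the Kat5 comparison and the second most negative in the Ep400 comparison. The call for Ep400 was lost without WT/1, WT/2, WT/4 or Ep400/2.

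*Psmf1* (chr2:151715812-151744186, minus strand), which encodes the proteasome inhibitor PI31, rose in the Ep400 ko clones. It was at 31.7, 34.2, 31.98 and 31.8 CPM in wildtype cells, at 41.9, 37.5 and 43.6 CPM in Kat5 ko clones and at 55.4, 46.6 and 41.1 CPM in Ep400 ko clones. All clones of both knockouts were above all wildtype samples, and the wildtype samples hardly varied. The log2-fold change was 0.56 ± 0.14 for Ep400 (adjusted p = 0.0369 in edgeR) and 0.31 ± 0.13 for Kat5 (adjusted p = 0.202), and the call for Ep400 held in 1 of the 7 fits with a library left out. With chromosome medians removed, the log2-fold change for Ep400 was 0.44 (adjusted p = 0.0674 in edgeR), and with the median of neighbouring genes removed it was 0.49 (adjusted p = 0.0485).

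The remaining activators were not called in any comparison by edgeR or DESeq2, and at an unadjusted p of at most 0.05 *Psme1* was lower in Kat5 ko clones. *Psme1* and *Psme2* encode the alternating subunits of the interferon-inducible activator ring and lie close to each other on chromosome 14. *Psme1* was at 71.3 to 80.6 CPM in wildtype, at 66.1, 39.4 and 62.1 CPM in Kat5 ko and at 55.5, 61.9 and 73.7 CPM in Ep400 ko libraries, and *Psme2* at 50.6 to 66.5, at 61.2, 38.8 and 55.2 and at 63.9, 62.6 and 77.6 CPM. Kat5/2 was the lowest library for both genes, and Ep400/3 the highest Ep400 ko clone. For *Psme4*, the large single-chain activator, WT/3 was high at 365 CPM beside 183, 172 and 237 CPM in the other wildtype samples, and no direction could be assigned in either knockout (log2-fold changes −0.18 ± 0.31 for Kat5 and −0.08 ± 0.31 for Ep400).

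Among the 7 chaperones, none was called against wildtype by edgeR, while DESeq2 called *Psmg1* and *Psmg2* lower in Ep400 ko clones, and 22.7% of all genes. At an unadjusted p of at most 0.05, 3 were lower and 1 higher in Ep400 ko clones, compared with 14.2% and 18% of all genes. In Kat5 ko clones 0 were lower or higher, compared with 11.6% and 10.7% of all genes. *Psmg1* and *Psmg2* form a dimer that starts the assembly of the alpha ring, and both were low in the Ep400 ko clones. *Psmg1* (chr16:95979933-95990960, minus strand) was at 40.8, 34.7, 24.9 and 35.6 CPM in wildtype cells and at 23.2, 22.3 and 18.6 CPM in Ep400 ko clones (log2-fold change −0.67 ± 0.19, adjusted p = 0.0530 in edgeR). *Psmg2* was at 32.3, 36.3, 23.1 and 30.8 CPM and at 23.5, 17.9 and 18.96 CPM (−0.61 ± 0.19, adjusted p = 0.07). The groups did not overlap for *Psmg1* and met at WT/3 and Ep400/1 for *Psmg2*. *Psmg3* and *Psmg4*, the other dimer of this step, had low levels of 7.17 to 12.02 and 8.87 to 18.0 CPM in wildtype cells, which the Ep400 ko clones overlapped (log2-fold changes −0.13 ± 0.28 and −0.13 ± 0.30).

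The chaperones of the ATPase ring differed among themselves. *Psmd5* was at 94.3 to 105 CPM in wildtype cells, at 114 to 136 CPM in Kat5 ko clones and at 91.3, 69.0 and 62.9 CPM in Ep400 ko clones, so that neither knockout overlapped with wildtype, in opposite directions (0.25 ± 0.12 with adjusted p = 0.264, and −0.43 ± 0.15 with adjusted p = 0.0929, in edgeR). *Psmd9* was at 35.8 to 45.1 CPM in wildtype cells and at 56.9, 63.2 and 41.6 CPM in Ep400 ko clones (0.40 ± 0.17, adjusted p = 0.148), but 1849 bases of its exons overlap with *Gm26745* on the opposite strand. *Psmd10*, also known as gankyrin, was at 36.7 to 39.8 CPM in wildtype cells, at 31.1, 31.3 and 37.1 CPM in Kat5 ko and at 28.6, 33.9 and 31.5 CPM in Ep400 ko clones (−0.24 ± 0.13 and −0.29 ± 0.13). Kat5/3 and WT/1 were so close for *Psmd10* that they overlapped with CPM normalized over all libraries but not within the comparison. None of these was called by edgeR or DESeq2 against wildtype.

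**Figure D5:**
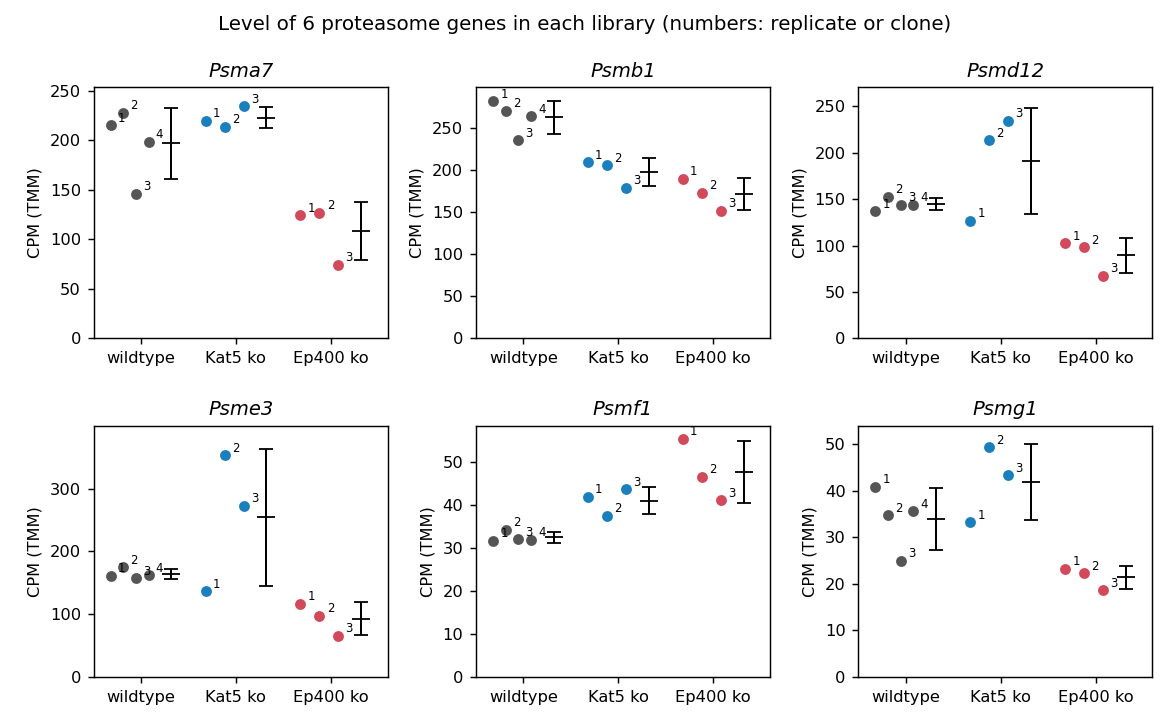
CPM of *Psma7*, *Psmb1*, *Psmd12*, *Psme3*, *Psmf1* and *Psmg1* in each library (points, numbered by replicate or clone) with the mean and SD of each group beside them, on axes that start at 0. For *Psme3* and *Psmd12* the point of Kat5/1 lies apart from those of Kat5/2 and Kat5/3, and for *Psmf1* all 6 knockout clones are above the wildtype samples.

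The second question was which proteasome genes differed between Kat5 ko clones and wildtype cells. No gene was called in the Kat5 ko clones by edgeR, where 0.625% of the 13434 genes tested passed (0.179% higher, 0.447% lower, and 0.476% within the limits for deregulated genes). DESeq2 called 1 of the 44 (2.27%), *Psmb1*, compared with 11% of all genes. At an unadjusted p of at most 0.05, *Psmb10*, *Psmc4*, *Psmd13* and *Psmf1* were higher and *Psmb1* and *Psme1* lower, compared with 10.7% and 11.6% of all genes. The groups did not overlap for 4 genes that were higher (9.09%, compared with 8.72% of all genes) and 3 that were lower (6.82%, compared with 10.9%), shares near those of all genes. The median log2-fold change was 0.14, compared with 0.00 for all genes, with 33 positive and 11 negative values, whereas 50% of all genes were positive. The 11 non-ATPase subunits had a median of 0.19 and were all positive, the ATPases had 0.19, and the alpha and beta rings had 0.04 and 0.03.

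*Psmc4*, an ATPase, was at 120 to 134 CPM in wildtype cells and at 145, 166 and 167 CPM in the Kat5 ko clones (log2-fold change 0.31 ± 0.12, adjusted p = 0.179 in edgeR). *Psmd13*, a lid subunit, was at 82.4 to 105 CPM in wildtype cells and at 115, 135 and 138 CPM in Kat5 ko clones (0.37 ± 0.14, adjusted p = 0.167). Its exons share 342 bases with *Sirt3* on the opposite strand. *Psmd12* had the largest value of the non-ATPase subunits (0.38 ± 0.20, adjusted p = 0.301) but Kat5/1 was below the wildtype samples.

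Kat5/1 had lower levels than the other Kat5 ko clones. Relative to the wildtype mean the median of the 44 genes was 98.3% in Kat5/1, 117% in Kat5/2 and 118% in Kat5/3. In Kat5/1, 13 genes were below and 8 above the wildtype range, in contrast to 4 and 27 in Kat5/2 and 2 and 28 in Kat5/3. Of all genes, 27.7% were below and 28.0% above the wildtype range in Kat5/1, 33.6% and 35.1% in Kat5/2, and 31.8% and 34.1% in Kat5/3. The share of proteasome genes below in Kat5/1 (29.5%) was thus close to that of all genes, and the shares above in Kat5/2 (61.4%) and Kat5/3 (63.6%) were larger. Without Kat5/1, 8 genes (18.2%) were called by edgeR, a share close to the 19.4% of all genes called in that fit. *Psmb10*, *Psmc4*, *Psmc5*, *Psmd6*, *Psmd12*, *Psmd13* and *Psme3* were then higher and *Psmb1* lower, and 3 of these genes are on chromosome 11. Fits without any other library called 0 genes, and at most 0.42% of all genes.

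Because both knockouts were compared with the same wildtype libraries, the difference between them was tested directly. Relative to Kat5 ko clones, *Psma7* and *Psmg1* were lower in Ep400 ko clones, 2 of 44 genes (4.55%) compared with 7.05% of 13587 genes tested (2.83% lower, 4.22% higher). The log2-fold change was −1.06 ± 0.25 (adjusted p = 0.0488 in edgeR) for *Psma7* and −0.99 ± 0.22 (adjusted p = 0.0447) for *Psmg1*, and *Psma7* passed the limits for deregulated genes, as did 5.36% of all genes. For *Psmg1*, the Kat5 ko clones were at 33.2, 49.3 and 43.3 CPM and the Ep400 ko clones at 23.2, 22.3 and 18.6 CPM. The median log2-fold change of the 44 genes was −0.52, compared with 0.01 for all genes, and 38 of 44 were negative, compared with 49.7% of all genes (50.3% positive). At an unadjusted p of at most 0.05, 18 were lower and 0 higher, compared with 16% and 16.3% of all genes (32.4% in either direction). In 24 genes (54.5%) every Ep400 ko clone was below every Kat5 ko clone, compared with 19.4% of all genes, and in 0 genes above, compared with 19.5%. The non-ATPase subunits had the lowest median of the classes with several genes, −0.78.

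Here the most negative value belonged to *Psme3*, with −1.46 ± 0.38 (adjusted p = 0.0566 in edgeR), followed by *Psmd12* with −1.12 ± 0.29 (adjusted p = 0.0559) and *Psmb10* with −1.08 ± 0.34 (adjusted p = 0.0812). DESeq2 called these 3 genes lower, with adjusted p = 0.00354, 0.00675 and 0.0268. The largest positive values were those of *Psme2* (0.37 ± 0.23), *Psmf1* (0.20 ± 0.20) and *Psme1* (0.17 ± 0.25), none of which passed the test. Calls again depended on single libraries, with 11 genes (25%) called without Kat5/1, where 18% of all genes were called, and 0 without any of the other 5 clones, where 0.0218% to 2.45% of all genes were called. With all 10 libraries in the same fit, 16 genes (36.4%) were called, all lower in Ep400 ko clones, compared with 25.3% of all genes.

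Genes outside the symbol rule that act with the proteasome were examined as a list of 24, of which 23 were found and tested. In Ep400 ko clones, *Usp14* and *Ubqln4* fell and *Ngly1* rose, a share of 13.0% that is close to the 13.7% of all genes. At an unadjusted p of 0.05, 9 of 23 were lower and 3 higher in Ep400 ko clones, compared with 14.2% and 18% of all genes. DESeq2 called *Nfe2l1*, *Rad23b*, *Ubqln1* and *Vcp* lower and *Zfand2a* higher in addition, and 22.7% of all genes. No gene was called in Kat5 ko clones by edgeR. At an unadjusted p of 0.05, 3 of 23 were higher and 2 lower there, compared with 10.7% and 11.6% of all genes. DESeq2 called *Ddi2* higher and *Zfand5* lower, and 11% of all genes. The median log2-fold changes of the list were −0.28 and 0.21. *Usp14*, a deubiquitinase that docks to the 19S particle, was at 119 to 173 CPM in wildtype, 162 to 267 CPM in Kat5 ko and 80.2 to 105 CPM in Ep400 ko libraries (−0.71 ± 0.17 in Ep400 ko clones, adjusted p = 0.0286). *Ubqln4*, a shuttle for ubiquitinated proteins, was at 166 to 180 CPM in wildtype cells and at 116, 113 and 84.8 CPM in Ep400 ko clones (−0.72 ± 0.15, adjusted p = 0.0170). In the direct comparison *Usp14* and *Ubqln4* were again lower in Ep400 ko clones, and *Zfand5*, which encodes a stress-induced proteasome activator, was higher (1.46 ± 0.29, adjusted p = 0.0355). These calls were 13.0% of the list, compared with 7.05% of all genes.

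*Nfe2l1* was at 223 to 310 CPM in wildtype cells, at 195, 198 and 233 CPM in Kat5 ko clones and at 132, 199 and 185 CPM in Ep400 ko clones (log2-fold change −0.62 ± 0.19 for Ep400, adjusted p = 0.0620 in edgeR, called lower by DESeq2). All Ep400 ko clones were below all wildtype samples, and the gene lies on chromosome 11. *Ngly1*, the glycosidase that helps to activate the Nfe2l1 protein, was at 23.4 to 30.2 CPM in wildtype cells and at 38.3, 38.7 and 39.1 CPM in Ep400 ko clones (0.54 ± 0.14, adjusted p = 0.0348). *Adrm1*, a ubiquitin receptor of the 19S particle, *Sem1*, its smallest subunit, and *Pomp*, the maturation factor of the 20S particle, were not called, with log2-fold changes of −0.28 ± 0.24, 0.24 ± 0.16 and 0.01 ± 0.18 in Ep400 ko clones.

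Of 6 genes for ubiquitin and its activation, *Uba1* and *Rps27a* fell in Ep400 ko clones (33.3%, compared with 13.7% of all genes). None was called in Kat5 ko clones by edgeR or DESeq2. There, 1 was higher at an unadjusted p of 0.05, compared with 10.7% of all genes. *Uba1*, the main ubiquitin-activating enzyme, was at 723 to 780 CPM in wildtype cells, at 760, 877 and 897 CPM in Kat5 ko clones and at 384, 431 and 337 CPM in Ep400 ko clones. The log2-fold change of −0.96 ± 0.15 (adjusted p = 0.00652) was larger in size than that of any of the 44 proteasome genes, and *Uba1* was also lower in the direct comparison (−1.16 ± 0.21, adjusted p = 0.0314). *Rps27a*, which encodes ubiquitin fused to a ribosomal protein and lies on chromosome 11, was at 837 to 954 CPM in wildtype cells and at 591, 602 and 424 CPM in Ep400 ko clones (−0.74 ± 0.17, adjusted p = 0.0246). *Ubb*, a gene for polyubiquitin, was not called by edgeR, with a log2-fold change of −0.07 ± 0.13 in Ep400 ko clones.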

How the data were processed

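Libraries of poly-A RNA (stranded kit) were sequenced as paired reads and mapped by the authors to mm10. What they deposited and what was used here are raw counts, in whole reads for each gene and library. The submitters' processing notes name STAR 2.7.3, bcl2fastq 2.20, R 4.2.1 and DESeq2 1.36.0, whereas the counting program, its strand setting and the annotation are not given in the sources used here. Deposited normalized tables were not used.

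Samples were grouped by their labels. Each comparison was fitted on its own libraries with edgeR 4.0.16 (R 4.3.3; filterByExpr, TMM, robust quasi-likelihood test, Benjamini-Hochberg adjustment over all genes tested, threshold 0.05). The biological coefficient of variation was 0.342, 0.325 and 0.409 for Kat5, Ep400 and the knockouts against each other. CPM use TMM factors over all libraries, and log2 differences a prior count of 2. No pair of replicates came close to counting noise (chi-square divided by its degrees of freedom, 26.1 to 239), and nothing in the labels says more about the origin of the wildtype samples than that they are biological replicates. Exon lengths and positions are from GENCODE M21 (GRCm38).

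The fit was tested on simulated data. Of changes with a log2 size of 1, it called 21 of 100 for Kat5, 31 of 100 for Ep400 and 1 of 95 between the knockouts. At a log2 size of 2, it called 61 of 96, 69 of 100 and 44 of 96. False calls numbered 8, 6 and 4. Smaller changes were not simulated. A gene without a call may therefore still have changed. The members and lists were chosen with earlier results of these data known. Named were the catalytic subunits and their inducible counterparts, activators, inhibitor and chaperones, all called genes, the 3 largest and smallest log2-fold changes of each comparison, and the gene with the highest level per length of each class. Beyond these, genes were named where a count of few was broken down, after their values had been seen. Alternatives were DESeq2 1.42.0, its size factors, no filter, all libraries in the same fit, the replicate number as a block, offsets for chromosomes and each library left out. Offsets for neighbouring genes (50 on each side) and dispersion without robust estimation were added after values had been seen. Single values of some genes in the lists are not reported here.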

Additional observations from a re-analysis of the deposited data

Results flagged for a closer look

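In 4 of 44 groups of wildtype samples, a single sample stood apart from the others by the gap between it and its nearest neighbour (Dixon's test, which chance exceeds in about 1 of 20 groups). *Psmc1* was lowest in WT/3 with 226 CPM, as were *Psmc2* with 157 CPM and *Psmd13* with 82.4 CPM. *Psmf1* was highest in WT/2 with 34.2 CPM. Groups of 3 clones were not examined in this way.

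The effects of the knockouts differed in the direct test for *Psmg1*, with a log2-fold change of −0.99 in Ep400 ko against Kat5 ko clones, and for *Psma7*, with −1.06. Of the fits with a library left out, 1 of 6 kept each call.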

How the results depend on the processing

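The median log2-fold change of the 44 genes kept its sign under all alternatives, with 0.08 to 0.19 for Kat5, −0.47 to −0.29 for Ep400 and −0.64 to −0.33 between the knockouts. The number of calls did not. In Ep400 ko against wildtype, 8 genes were called, and 14 with DESeq2, 3 with all libraries in the same fit, 4 with chromosome offsets, 5 with offsets from neighbouring genes and 0 to 9 with a library left out. In Kat5 ko against wildtype DESeq2 called 1, and fits with a library left out called 0 to 8. Between the knockouts, 2 genes were called, and 14 with DESeq2, 1 with its size factors, 5 without a filter, 16 with all libraries in the same fit, 1 with chromosome offsets, 1 with neighbour offsets and 0 to 11 with a library left out. The share of all genes called also moved. It was 22.7% with DESeq2, 9.03% in the same fit, 13.2% and 13% with the offsets and 1.2% with the replicate block for Ep400 (13.7% in the reported fit), 11% with DESeq2 for Kat5 (0.625%), and 22.7%, 6.82%, 6.47%, 25.3%, 7.9% and 7.37% in the order given above between the knockouts (7.05%), with 1.57% under the block. The cause was not tested, except that fits with a library left out have fewer samples.

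With the replicate number as a block, 0 genes were called in each comparison. The labels do not say that numbers pair samples, and same-numbered libraries had correlations of −0.11 to 0.21, so the numbers were not taken as a pairing. *Psmb6* in Kat5 ko was at −0.022 with the block.

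Signs changed for genes that were not called. With all libraries in the same fit, *Psmb7* in Kat5 ko was at 0.000467 and *Psmg4* between the knockouts at 0.00324. Offsets for chromosomes and for neighbours gave −0.024 and −0.018 for *Psmb6* in Kat5 ko, 0.12 and 0.19 for *Psme4* in Ep400 ko and 0.028 and 0.034 for *Psmd10* between the knockouts. With a library left out, ranges in Kat5 ko were −0.037 to 0.15 for *Psmb6*, −0.10 to 0.039 for *Psmb7*, −0.39 to 0.10 for *Psme4* and −0.33 to 0.035 for *Psmg4*. In Ep400 ko they were −0.33 to 0.19 for *Psme4*, −0.32 to 0.057 for *Psmg3*, −0.41 to 0.0495 for *Psmg4* and −0.036 to 0.37 for *Psmd8*. Between the knockouts they were −0.045 to 0.31 for *Psme1*, −0.18 to 0.27 for *Psme4* and −0.30 to 0.15 for *Psmg4*.

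Of the values for single named genes under an alternative, 731 kept their direction and their side of the threshold, 83 lost a call, 37 gained a call and 31 changed sign. Depth gave every proteasome gene at least 233 counts in every library (the lowest was *Psmg3*).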
